A study of Mus musculus with 6 samples.

Results

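The gasdermins are a family of 7 genes here, *Gsdma*, *Gsdmc*, *Gsdmc2*, *Gsdmc3*, *Gsdmc4*, *Gsdmd* and *Gsdme*, taken by name from the 52550 genes listed for each RNA-seq library. Of these genes, 5 of 7 passed the filter on low values that 11564 genes passed in all. The libraries came from colonic epithelial cells of 3 Zfp90fl/fl and 3 Zfp90ΔIEC male C57BL/6 mice, which the labels give as 6 to 8 weeks old without saying at which step, and all 6 mice had received AOM-DSS. That model of colitis-associated cancer is an injection of 10 mg/kg azoxymethane, a carcinogen, followed after 5 days by 3 cycles of 7 days of 2% dextran sulfate sodium, which injures the colon, and 14 days of water, with the mice killed on day 80. These doses and ages are those of the labels, and the methods of the study name another concentration of dextran sulfate sodium and give an age at the azoxymethane injection. In the Zfp90ΔIEC mice exon 4 and the 3′ UTR of the floxed *Zfp90* gene were removed by a Cre driven by the Villin promoter, which is active in intestinal epithelium, and the Zfp90fl/fl mice carried the floxed alleles without Cre. The mice were littermates housed apart by genotype, so cage and genotype cannot be told apart, and no mice without AOM-DSS were among these libraries.

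Gasdermins are cytosolic proteins held inactive by their own C-terminal part. When a protease cuts the linker, the N-terminal part inserts into membranes and forms pores, through which cytokines leave the cell and, if the pores are many, the cell lyses in the process called pyroptosis. GSDMD is cut by caspase-1 and caspase-11 downstream of inflammasomes, and the mouse *Gsdmc* genes are copies arisen by duplication that intestinal epithelium expresses and that type 2 cytokines raise through STAT6.

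The *Gsdmc* genes lie side by side on the minus strand of chromosome 15, and their sequences set how well their reads can be told apart. In GRCm38 *Gsdmc* lies at chr15:63775968-63808759, *Gsdmc2* at chr15:63824346-63845177, *Gsdmc3* at chr15:63857724-63878558 and *Gsdmc4* at chr15:63891264-63912297, a span of 136330 bases. *Gsdmd* lies on the plus strand of the same chromosome, at chr15:75862327-75867408. *Gsdme* is at chr6:50188888-50263862 on the minus strand and *Gsdma* at chr11:98664351-98677708 on the plus strand. The first 90 coding bases of the cluster genes are shown to make their closeness visible. They were read from the GENCODE M21 transcripts, and capitals mark bases that differ from *Gsdmc2*.
Gsdmc2: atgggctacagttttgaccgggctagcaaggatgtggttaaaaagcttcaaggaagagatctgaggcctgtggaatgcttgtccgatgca
Gsdmc3: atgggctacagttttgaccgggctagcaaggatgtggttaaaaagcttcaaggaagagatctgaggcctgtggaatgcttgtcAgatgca
Gsdmc4: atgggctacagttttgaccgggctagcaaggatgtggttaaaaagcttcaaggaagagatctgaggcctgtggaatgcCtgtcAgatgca
Gsdmc: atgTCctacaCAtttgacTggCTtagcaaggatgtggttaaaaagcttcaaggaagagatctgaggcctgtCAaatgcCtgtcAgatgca
In this stretch *Gsdmc3* differed from *Gsdmc2* at 1 base, *Gsdmc4* at 2 and *Gsdmc* at 11. Over the whole coding sequence, 1443 bases in each of *Gsdmc2*, *Gsdmc3* and *Gsdmc4*, *Gsdmc2* and *Gsdmc3* were 97.1% identical and *Gsdmc2* and *Gsdmc4* 93.7%. *Gsdmc* was 86.7% to 87.5% identical to the other copies, and *Gsdmc* and *Gsdmd* were 53.0% identical. Of all windows of 150 bases, the length of a read, 16.64% in the *Gsdmc2* transcript, 19.31% in *Gsdmc3*, 8.83% in *Gsdmc4* and 3.15% in *Gsdmc* occurred unchanged in another gene of the cluster. Reads from such windows could have been assigned to either copy, so the split between the copies is less certain than their sum.

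The 250 bases upstream of the RefSeq start site are shown for *Gsdmc3* and *Gsdme*, the 2 of the 7 genes that matched the RefSeq promoter table (GRCm38.p6), to set a gene of the cluster beside one outside it. In *Gsdmc3*, at chr15:63878559-63878808 on the minus strand, capitals mark a TATATAA motif whose first base lies 29 bases upstream of the start. *Gsdme*, at chr6:50261770-50262019 on the minus strand, has none. RefSeq starts *Gsdme* downstream of the first start in GENCODE M21, so this window lies upstream of the RefSeq start and inside the longer GENCODE gene given above.
Gsdmc3: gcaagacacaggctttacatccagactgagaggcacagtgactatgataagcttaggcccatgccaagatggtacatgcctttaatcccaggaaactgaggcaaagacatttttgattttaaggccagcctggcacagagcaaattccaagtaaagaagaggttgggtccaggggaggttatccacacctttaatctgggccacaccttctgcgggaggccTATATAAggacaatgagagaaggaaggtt
Gsdme: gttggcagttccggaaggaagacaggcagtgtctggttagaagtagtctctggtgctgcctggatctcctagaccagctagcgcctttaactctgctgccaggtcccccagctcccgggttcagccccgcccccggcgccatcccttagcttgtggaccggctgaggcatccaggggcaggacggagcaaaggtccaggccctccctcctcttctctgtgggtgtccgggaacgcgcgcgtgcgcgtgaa
On both strands, TATATAA was present in 3.04% of 32851 promoters of this length. The *Gsdmc3* window held 1 CpG and 47.6% GC, and the *Gsdme* window 15 CpG and 64% GC, where the medians over all promoters were 6 CpG and 52.4% GC. The STAT6-type motif, TTC and GAA separated by 4 bases, present in 5.85% of promoters, and the related TTCNNNGAA, present in 7.02%, occurred in neither window. These 2 motifs read the same on both strands.

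Levels are given as FPKM, fragments per kilobase of transcript and M mapped fragments, the unit the authors deposited, which is per length and can be compared between genes. *Zfp90*, the deleted gene, was listed at 0.630, 0.490 and 0.569 FPKM in replicates 1, 2 and 3 of the Zfp90fl/fl mice and 0.0846, 0.195 and 0.166 FPKM in those of the Zfp90ΔIEC mice, without overlap. *Zfp90* lay below the filter on low values, and its difference did not pass the test (limma adjusted p = 0.123 in the unfiltered fit). Genotype labels of 2 Zfp90ΔIEC mice name another gene number, and their titles placed them in this group. All 7 epithelial markers (*Epcam*, *Cdh1* and others) were above 1 FPKM on average, with a summed level of 5684 to 6416 FPKM in Zfp90fl/fl and 5632 to 6102 FPKM in Zfp90ΔIEC mice. *Krt5* and *Trp63*, which define squamous epithelium, were listed at 0 in all 6 libraries. *Krt14*, *Krt10* and *Krt13* of the same list were above 0 in every library, with means of 0.923, 0.400 and 0.104 FPKM over the 6 libraries. The files give no depth. Steps between low values put it at 25.7 to 28.65 M fragments per library, with 66.9% to 74.4% of the values examined within 0.1 of a whole step.

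*Gsdmc4*, *Gsdmc2* and *Gsdmc3* were among the most abundant transcripts of these epithelial cells. On the log2 scale they differed between the genotypes by less than the SD among Zfp90ΔIEC mice. The differences were larger than the SD among Zfp90fl/fl mice. *Gsdmc4* ranked between 41 and 83 of all listed genes in the 6 libraries, *Gsdmc2* between 91 and 217 and *Gsdmc3* between 236 and 427. *Gsdmd* ranked between 763 and 1087 and *Gsdme* between 9809 and 10468. None of the 7 genes changed at an adjusted p under 0.05. Apart from *Gsdmc*, the order of levels was the same in every mouse, from *Gsdmc4* down through *Gsdmc2*, *Gsdmc3*, *Gsdmd* and *Gsdme* to *Gsdma*.

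*Gsdmc4* was at 553, 545 and 630 FPKM in replicates 1, 2 and 3 of the Zfp90fl/fl mice and 377, 442 and 755 FPKM in those of the Zfp90ΔIEC mice. Zfp90ΔIEC replicates 1 and 2 lay below every Zfp90fl/fl mouse and replicate 3 above every one, so the ranges overlapped. The means were 576 ± 46.9 and 525 ± 202 FPKM (SD, n = 3 each). Zfp90ΔIEC minus Zfp90fl/fl gave a log2 fold change of -0.20 (standard error, SE, 0.239, 95% confidence interval -0.76 to 0.37, limma adjusted p = 0.752). On the linear scale the interval ran from 0.589-fold to 1.29-fold.

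*Gsdmc2* was at 258.0, 245 and 257.7 FPKM in the Zfp90fl/fl and at 160.1, 210 and 354 FPKM in the Zfp90ΔIEC mice. The Zfp90fl/fl mice were close together, and the Zfp90ΔIEC mice lay on both sides of them in the same order as for *Gsdmc4*. The log2 fold change was -0.15 (SE 0.259, 95% confidence interval -0.76 to 0.46, limma adjusted p = 0.828).

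*Gsdmc3* was at 147, 122 and 138 FPKM in the Zfp90fl/fl and at 91.2, 109 and 159.8 FPKM in the Zfp90ΔIEC mice. Again Zfp90ΔIEC replicates 1 and 2 were the lowest of all mice and replicate 3 the highest. The log2 fold change was -0.21 (SE 0.195, 95% confidence interval -0.67 to 0.25, limma adjusted p = 0.671).

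*Gsdmc*, the copy that gave the cluster its name, was listed at 0 in 5 of 6 libraries and at 1.78 FPKM in Zfp90ΔIEC replicate 2, or about 123 estimated fragments. A single library thus holds all of its signal, and it did not pass the filter. Its 0 values come from estimated FPKM and cannot be told from a failed estimate.

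**Figure D1:**
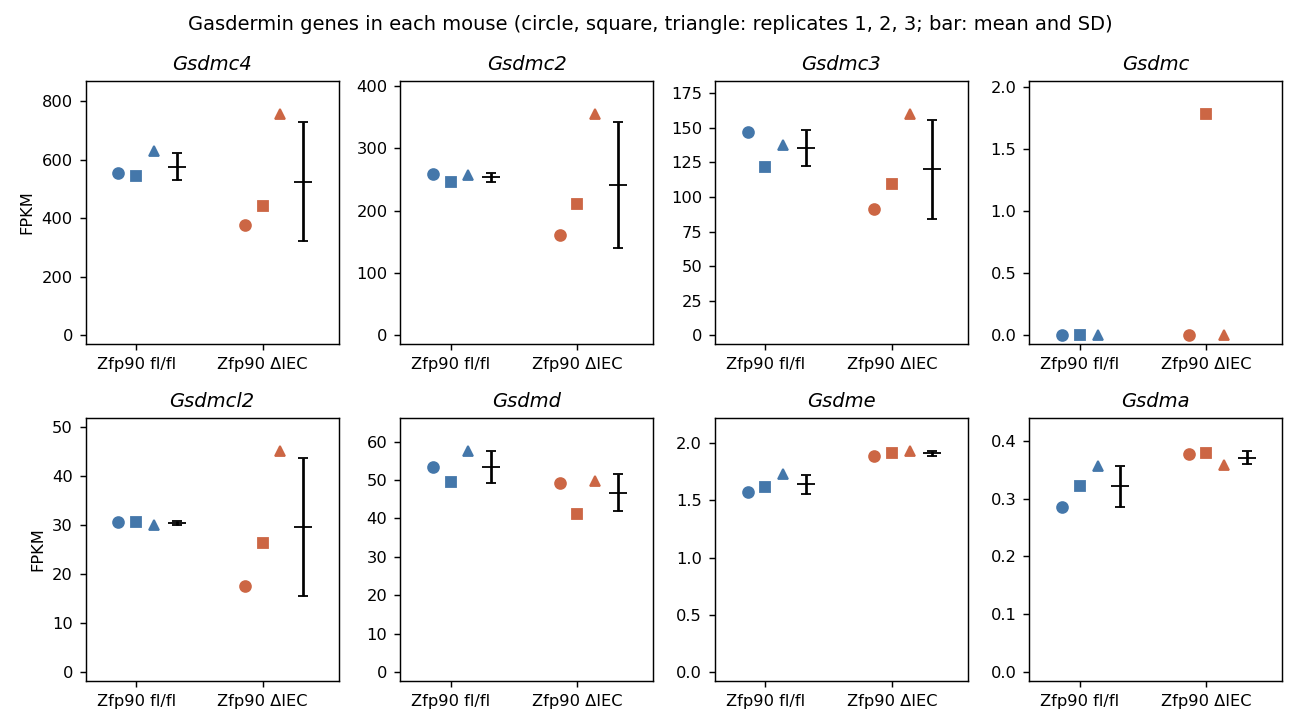
FPKM of the gasdermin genes and of the pseudogene Gsdmcl2 in each mouse, on linear axes that include 0, with the mean and SD (n = 3) as black bars except for Gsdmc, which was listed at 0 in 5 of 6 libraries. Zfp90 ΔIEC replicate 3 (triangle) is the highest of the 6 mice for Gsdmc4, Gsdmc2, Gsdmc3 and Gsdmcl2, and replicate 1 (circle) the lowest, while all Zfp90 ΔIEC values of Gsdme lie above those of Zfp90 fl/fl.

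*Gsdmd*, the gasdermin that inflammasome caspases cut, was at 53.4, 49.4 and 57.6 FPKM in the Zfp90fl/fl and at 49.3, 41.2 and 49.7 FPKM in the Zfp90ΔIEC mice. The groups overlapped only through the lowest Zfp90fl/fl mouse, replicate 2, which lay below Zfp90ΔIEC replicate 3. The means were 53.5 ± 4.11 and 46.7 ± 4.81 FPKM (SD, n = 3 each), with a log2 fold change of -0.19 (SE 0.0936, 95% confidence interval -0.41 to 0.029, limma adjusted p = 0.404). The fold change of *Gsdmd* was of the size of that of *Gsdmc4*, with a smaller standard error.

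*Gsdme*, a gasdermin that can turn other forms of cell death into lysis, was at 1.57, 1.62 and 1.73 FPKM in the Zfp90fl/fl and at 1.89, 1.91 and 1.93 FPKM in the Zfp90ΔIEC mice. Every Zfp90ΔIEC mouse was above every Zfp90fl/fl mouse, and the mean was 16.5% higher. On the log2(FPKM + 1) scale, which understates changes of low genes, the fold change was 0.14 (SE 0.0645, 95% confidence interval -0.012 to 0.29, limma adjusted p = 0.381), so the difference did not pass the test. These values rest on about 101 to 137 estimated fragments per library.

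*Gsdma*, known from skin and stomach, was at 0.285, 0.321 and 0.3571 FPKM in the Zfp90fl/fl and at 0.377, 0.378 and 0.3578 FPKM in the Zfp90ΔIEC mice. The groups did not overlap, but the gap between them was at the fourth decimal place, at about 20.0 to 29.6 estimated fragments per library. *Gsdma* lay below the filter, and its log2 fold change without the filter was 0.05 (SE 0.0376, limma adjusted p = 0.728).

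Across the 5 genes that passed the filter, 0 were called at an adjusted p under 0.05 in limma, where 0.199% of all genes tested were called (23 genes, 15 lower and 8 higher in Zfp90ΔIEC mice). At an unadjusted p under 0.05 the count was 0 of 5 genes, against 14.6% of all genes tested. Without overlap between genotypes there was 1 of 5, *Gsdme*, against 21.3% of all genes tested. The median log2 fold change of the 5 genes was -0.19 and that of all genes tested -0.023. The labels number 3 replicates per genotype, which the study describes as mice, and the p-values measure the spread between these 6 libraries only. In bulk RNA, fewer cells of a type and less RNA per cell cannot be told apart.

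**Figure D2:**
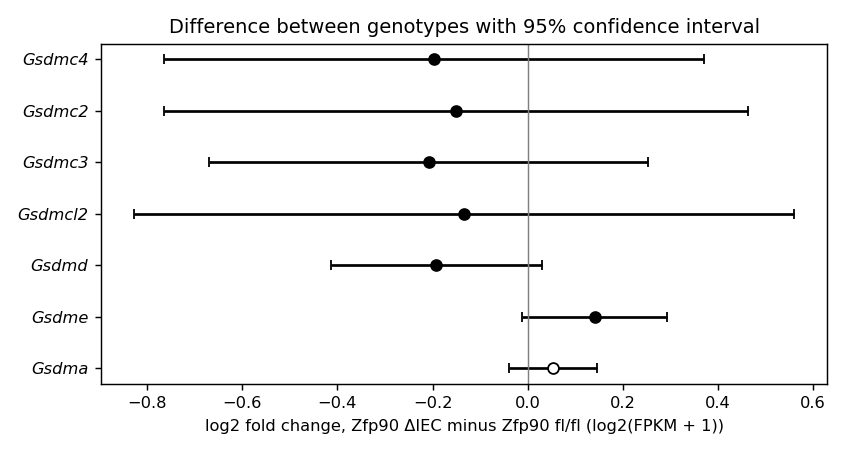
Log2 fold change (Zfp90 ΔIEC minus Zfp90 fl/fl, on log2(FPKM + 1)) with its 95% confidence interval from limma, for 3 mice per genotype. Open point: Gsdma, below the filter and taken from the fit without it. Every interval includes 0, and those of the Gsdmc genes are wider than those of Gsdmd and Gsdme.

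Since the copies share reads, the summed FPKM of *Gsdmc*, *Gsdmc2*, *Gsdmc3* and *Gsdmc4* was compared as well. It was 958, 912 and 1025 FPKM in the Zfp90fl/fl mice and 628, 763 and 1269 FPKM in the Zfp90ΔIEC mice. The Zfp90fl/fl mice spanned 1.12-fold and the Zfp90ΔIEC mice 2.02-fold, with replicate 3 of the latter the highest of all 6 mice. The difference of mean log2 sums was -0.19, within the SD of 0.52 among Zfp90ΔIEC mice. Its direction rested on single mice: without Zfp90ΔIEC replicate 1 it was 0.030, and without Zfp90ΔIEC replicate 3 it was -0.48. Without replicate 1, *Gsdmc2* and *Gsdmc4* also changed sign, to 0.10 and 0.0079, and without replicate 3 they were at -0.47 and -0.49.

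The makeup of the cluster varied little while its level moved. *Gsdmc4* gave 57.7% to 61.4% of the summed FPKM in the 6 mice, *Gsdmc2* 25.1% to 27.9% and *Gsdmc3* 12.6% to 15.3%. The cluster held 92.4% to 96.1% of the summed FPKM of the 7 gasdermins and 0.143% to 0.284% of all FPKM of a library.

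**Figure D3:**
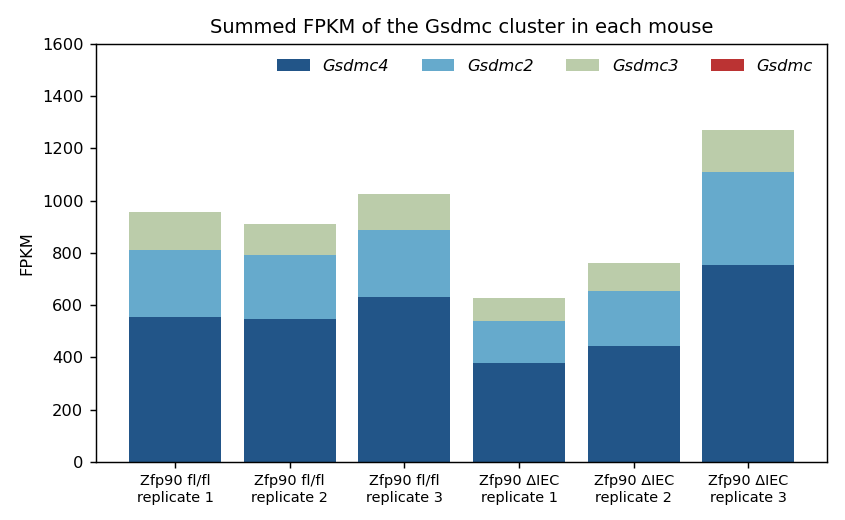
Summed FPKM of the Gsdmc cluster in each mouse, split by gene; bars start at 0. Zfp90 ΔIEC replicate 1 is lowest at 628 FPKM and replicate 3 highest at 1269 FPKM, while Gsdmc4 makes up 57.7% to 61.4% of every bar and Gsdmc is too low to be seen.

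The cluster was then set against *Gsdmd* and *Gsdme*. The cluster sum was 17.9, 18.5 and 17.8 times the *Gsdmd* level in the Zfp90fl/fl mice and 12.8, 18.5 and 25.5 times in the Zfp90ΔIEC mice. The ratio was thus nearly constant in Zfp90fl/fl mice and lay on both sides of that value in Zfp90ΔIEC mice. On the log2 scale, the cluster sum minus the mean of *Gsdmd* and *Gsdme* was 6.34, 6.31 and 6.34 in the Zfp90fl/fl mice and 5.71, 6.11 and 6.70 in the Zfp90ΔIEC mice. The genotypes differed by -0.16, less than the SD of 0.50 among Zfp90ΔIEC mice, and by 0.073 without Zfp90ΔIEC replicate 1 and -0.42 without replicate 3. This difference was not tested.

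The spread itself differed between the family members. The SD of log2(FPKM + 1) among Zfp90ΔIEC mice was 0.58 for *Gsdmc2*, 0.52 for *Gsdmc4* and 0.41 for *Gsdmc3*, larger than in 98.6%, 98.1% and 96.8% of all genes tested. Among Zfp90fl/fl mice it was 0.041, 0.11 and 0.14 for the same genes, larger than in 18.2%, 68.6% and 76.6% of all genes tested. For *Gsdmd* it was 0.11 among Zfp90fl/fl and 0.15 among Zfp90ΔIEC mice, and for *Gsdme* 0.045 and 0.011. The median over all genes tested was 0.082 and 0.099. The log2(FPKM + 1) scale understates the spread of low genes, so these shares do not compare genes of like level. The cluster genes thus ranked higher by spread among Zfp90ΔIEC than among Zfp90fl/fl mice, a description of 3 mice per genotype that was not tested.

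**Figure D4:**
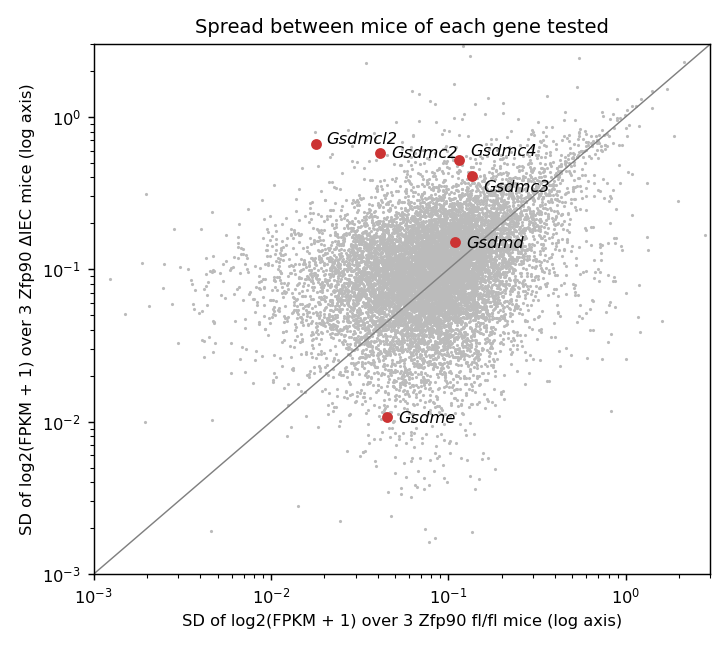
SD of log2(FPKM + 1) over the 3 Zfp90 fl/fl mice (x, log axis) against that over the 3 Zfp90 ΔIEC mice (y, log axis) for each gene tested (grey; SDs between 0.001 and 3 shown), with the gasdermin genes and the pseudogene Gsdmcl2 in red and a line of equal spread. The cluster genes and Gsdmcl2 lie far above the line, Gsdmd near it and Gsdme below it.

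*Gsdmc4* and *Gsdmc2* moved together over the 6 libraries, with a Pearson r of 0.974 and a Spearman rho of 0.943, as did *Gsdmc2* and *Gsdmc3* (r = 0.955). Without the 2 libraries farthest from the median, r was 0.929 and 0.919. These points share libraries and, between copies, reads. *Gsdmcl2* is a transcribed pseudogene on the plus strand between *Gsdmc3* and *Gsdmc4* (chr15:63880707-63890512), and none of its 150-base windows occurred in the cluster genes. It was at 30.6, 30.6 and 29.9 FPKM in the Zfp90fl/fl mice and at 17.6, 26.3 and 45.1 FPKM in the Zfp90ΔIEC mice, the same order of Zfp90ΔIEC mice as in the cluster (r = 0.943 and rho = 0.771 with *Gsdmc4*, and r = 0.822 without the farthest 2 libraries). Its log2 fold change was -0.13 (SE 0.293, limma adjusted p = 0.869). For *Gsdmc4*, r was 0.473 with *Gsdmd* and -0.147 with *Gsdme*, and it rested on 2 libraries, since without the farthest 2 it was 0.981 and -0.604.

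The remaining family genes were at or near 0. *Gsdma3* and the pseudogene *Gsdmcl1* were listed at 0 in all 6 libraries, *Gsdma2* in 5 of 6 and *Pjvk*, the pejvakin gene known from hearing, in 4 of 6. The pseudogene *Gsdmcl-ps*, chosen after its values were seen, was at 0.862, 0.719 and 0.845 FPKM in the Zfp90fl/fl mice and at 0.332, 0.554 and 0.623 FPKM in the Zfp90ΔIEC mice, without overlap. Below the filter, its log2 fold change of -0.27 did not pass the test (SE 0.0939, limma adjusted p = 0.418 in the unfiltered fit).

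Genes near the gasdermins were examined for changes over a wider region. Within 500 kb of the cluster, 3 genes passed the filter, *Gsdmcl2* and, on the right, *Fam49b* and *Asap1*, with log2 fold changes between -0.13 and 0.11, and none was called. *Fam49b*, 16800 bases from *Gsdmc4*, was at 8.35, 7.92 and 8.99 FPKM in the Zfp90fl/fl and 8.15, 8.01 and 9.02 FPKM in the Zfp90ΔIEC mice. As in the cluster, Zfp90ΔIEC replicate 3 was the highest mouse in this neighbour, by a small margin, but replicate 1 was not the lowest. Around *Gsdmd*, 24 genes passed the filter, none was called, and the log2 fold changes ran from -0.33 to 0.26. The nearest were *Zc3h3* on the left (-0.12) and *Naprt* on the right (0.018).

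The tested genes whose log2(FPKM + 1) was most like the cluster sum over the 6 libraries were *Psenen* (r = 0.995), *Kars* (r = 0.977) and *B4galt1* (r = 0.976). In all, 74 genes had an r over 0.9 with the cluster sum. For *Gsdmd* the most alike were *Arrdc4* (r = 0.997), *Gm4673* (r = 0.985) and *Picalm* (r = 0.983), among 136 genes with an r over 0.9. These values describe 6 libraries, which share 2 genotypes, and carry no test.

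The genes that act before and after gasdermin pores were read from a list of 61 genes in 6 roles, of which 45 passed the filter. Of these, 0 rose and 2 fell at an adjusted p under 0.05 in limma, *Il1b* and *Cd14*, against 0.199% of all genes tested. The groups did not overlap for 12 of the 45, against 21.3% of all genes tested, and 11 had an unadjusted p under 0.05, against 14.6%. The median log2 fold change was -0.16, and 36 of 45 were negative, where all genes tested had a median of -0.023 and 6613 of 11564 were negative.

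Among sensors and the adaptor of the inflammasome, 0 of 11 passed the test. *Nlrp6*, a sensor of intestinal epithelium, was at 38.5, 38.3 and 41.4 FPKM in the Zfp90fl/fl and 36.8, 35.9 and 41.7 FPKM in the Zfp90ΔIEC mice. *Naip1*, which recognises the needle protein of bacterial secretion systems, had a log2 fold change of -0.18 (adjusted p = 0.574 from limma). Both genes overlapped between the genotypes.

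Among the proteases that can cut gasdermins, 0 of 8 passed the test. *Casp1*, which cuts GSDMD and the precursors of the interleukins, was at 121.0, 131 and 137 FPKM in the Zfp90fl/fl and at 109, 121.3 and 123 FPKM in the Zfp90ΔIEC mice, with overlap. *Casp4*, the gene of caspase-11, was chosen after its values were seen and was at 10.4, 11.3 and 11.5 FPKM in the Zfp90fl/fl and 5.75, 6.69 and 8.29 FPKM in the Zfp90ΔIEC mice. *Casp4* did not overlap between genotypes, and its log2 fold change of -0.62 missed the threshold (SE 0.117, limma adjusted p = 0.0923).

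Of 3 released cytokines and alarmins that passed the filter, 1 fell. *Il1b*, an interleukin that leaves cells through gasdermin pores, was at 3.67, 4.19 and 3.08 FPKM in the Zfp90fl/fl and at 0.199, 0.508 and 0.537 FPKM in the Zfp90ΔIEC mice (log2 fold change -1.72, adjusted p = 0.00823 from limma). *Il18*, the related interleukin that epithelium makes, was at 75.1, 78.5 and 97.1 FPKM in the Zfp90fl/fl and at 70.0, 65.4 and 81.1 FPKM in the Zfp90ΔIEC mice, with overlap (log2 fold change -0.21, adjusted p = 0.481). *Hmgb1*, a nuclear protein released on lysis, had a log2 fold change of 0.094 (adjusted p = 0.457).

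For membrane rupture and repair, 0 of 8 passed the test, and the median log2 fold change was 0.0019. The most abundant, *Chmp4b* and *Chmp2a*, which encode parts of the ESCRT-III machinery that removes damaged membrane, had log2 fold changes of -0.010 and 0.027. For both the genotypes overlapped. *Ninj1*, the membrane rupture gene of this list, was chosen after its values were seen. It was at 5.63, 6.85 and 5.76 FPKM in the Zfp90fl/fl and at 5.81, 4.46 and 3.71 FPKM in the Zfp90ΔIEC mice, with overlap. Its log2 fold change of -0.34 did not pass the test (SE 0.141, limma adjusted p = 0.340).

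Of 9 genes of lipopolysaccharide sensing and interferon induction, all were negative in the fit and 1 fell. *Cd14*, the co-receptor that hands lipopolysaccharide to TLR4, was at 24.5, 27.3 and 27.1 FPKM in the Zfp90fl/fl and at 14.4, 12.9 and 15.5 FPKM in the Zfp90ΔIEC mice. The groups did not overlap, with a log2 fold change of -0.84 (SE 0.0807, limma adjusted p = 0.0219). The call was lost without Zfp90fl/fl replicate 2 (adjusted p = 0.0779), without Zfp90fl/fl replicate 3 (0.0618), without Zfp90ΔIEC replicate 1 (0.0560) and without the filter (0.0597). *Irf1*, a transcription factor of the interferon response, was at 32.2, 36.3 and 41.2 FPKM in the Zfp90fl/fl and at 19.8, 17.6 and 23.7 FPKM in the Zfp90ΔIEC mice, also without overlap (log2 fold change -0.82, adjusted p = 0.0664). With the replicate number as a block it passed (adjusted p = 0.0487).

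In type 2 cytokine signalling, 0 of 6 passed the test. The ligand genes *Il13* and *Il25* were listed at 0 in all libraries. The ligand gene *Il4* was at 0.0497 to 0.183 FPKM, below the filter and with overlap between genotypes. These ligand genes and *Il4ra* were chosen after their values were seen. *Il13ra1*, a receptor chain, had a log2 fold change of -0.098 (adjusted p = 0.640 from limma). *Retnlb*, a goblet cell product that type 2 cytokines raise, was at 53.5, 99.0 and 82.0 FPKM in the Zfp90fl/fl and at 27.8, 21.5 and 59.5 FPKM in the Zfp90ΔIEC mice, with overlap (log2 fold change -1.18, SE 0.383, adjusted p = 0.243). *Il4ra*, the shared receptor chain for the interleukins 4 and 13, was at 5.76, 7.19 and 7.90 FPKM in the Zfp90fl/fl and 3.52, 4.36 and 4.03 FPKM in the Zfp90ΔIEC mice, without overlap (log2 fold change -0.67, adjusted p = 0.0834). For *Retnlb*, Zfp90ΔIEC replicate 3, the highest mouse for the cluster, was the highest Zfp90ΔIEC mouse but above only 1 Zfp90fl/fl mouse. The lowest Zfp90ΔIEC mouse for *Retnlb* was replicate 2, and for the cluster replicate 1.

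**Figure D5:**
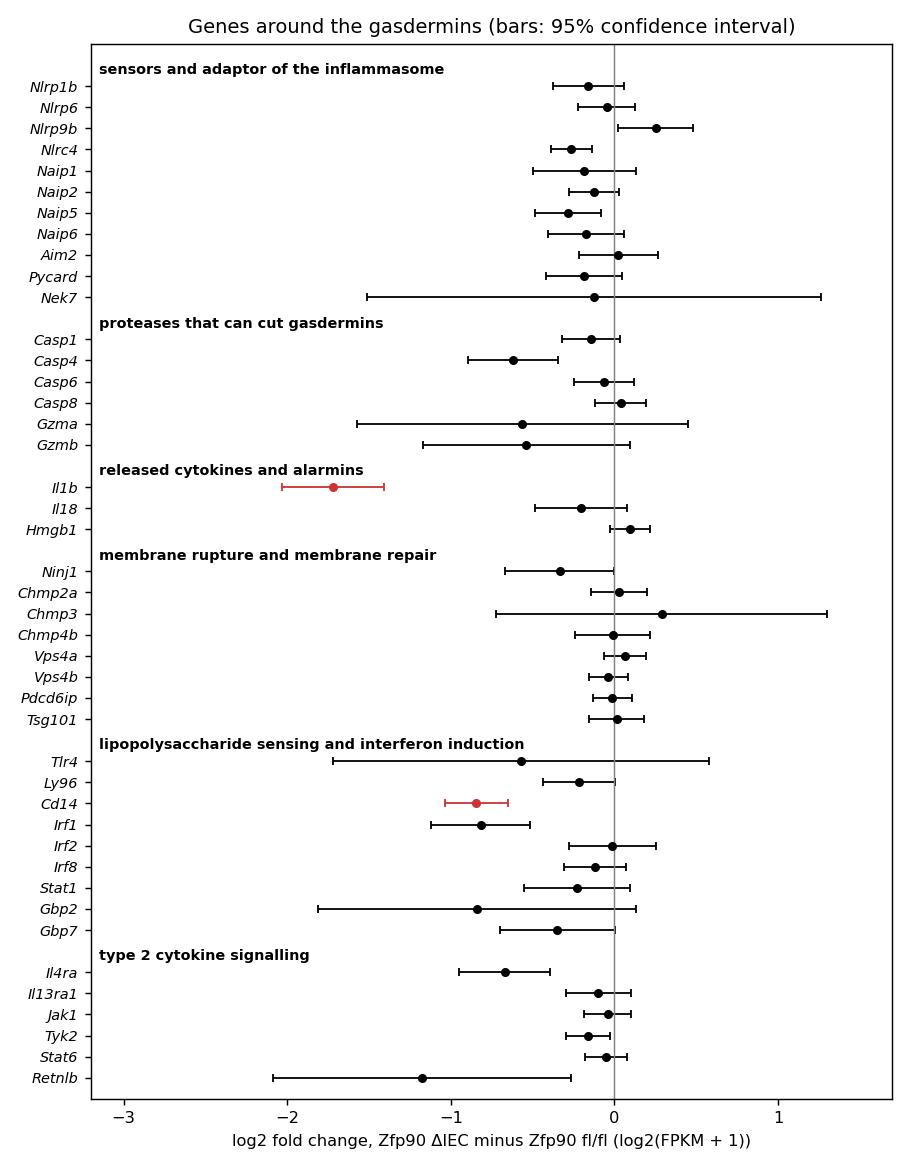
Log2 fold change (Zfp90 ΔIEC minus Zfp90 fl/fl, on log2(FPKM + 1)) with its 95% confidence interval from limma for genes of the list that passed the filter, by role; red marks the 2 genes with an adjusted p under 0.05, Il1b and Cd14. Most points lie left of 0, and those of membrane rupture and repair scatter around it.

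Markers of other cells were read beside these genes. Over the 6 libraries, the Pearson r of the *Gsdmc* cluster sum with the summed markers was read for each of 11 cell type lists. It ran from -0.708 for stroma and endothelium to 0.772 for T cells. For B and plasma cells it was 0.608, for tuft cells 0.599 and for neutrophils 0.565. Goblet cells (-0.447), mature colonocytes (-0.254) and stem and proliferating cells (-0.223) were negative. Without the 2 libraries farthest from the median, r was -0.136 for stroma and endothelium, 0.902 for T cells and 0.969 for B and plasma cells. It was then 0.823 for tuft cells, 0.791 for neutrophils, -0.775 for goblet cells, -0.946 for mature colonocytes and -0.785 for stem and proliferating cells. The points share libraries and depth, and the values carry no test. Several of these sums rest on 1 gene or on low values. Of the 5 B and plasma cell markers only *Ighm* passed the filter, and of the 5 neutrophil markers only *Ly6g*. Of the 4 tuft cell markers and of the 5 stroma and endothelium markers, 0 passed. The 5 T cell markers summed to 2.97, 2.65 and 4.61 FPKM in the Zfp90fl/fl and 1.77, 2.05 and 3.16 FPKM in the Zfp90ΔIEC mice. Among the Zfp90ΔIEC mice the order of this sum was that of the cluster. *Trac*, the most abundant of these markers and the only one that passed the filter, and *Cd3e* had that order. *Cd3g*, *Cd3d* and *Cd8a* did not.

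The 6 mature colonocyte markers summed to 5326 to 7146 FPKM in Zfp90fl/fl and 8024 to 12174 FPKM in Zfp90ΔIEC mice, most of it from *Car1*, a carbonic anhydrase gene. *Car1* was at 6349, 10059 and 7206 FPKM in the Zfp90ΔIEC mice, highest in replicate 2. The ion exchanger gene *Slc26a3*, at 108, 112 and 129 FPKM, and the water channel gene *Aqp8*, at 69.6, 94.1 and 112 FPKM, were highest in replicate 3, as the cluster was. So was *Car4*, while *Krt20* and *Guca2a* were highest in replicate 2. *Car4* and *Krt20* overlapped between genotypes, and of the 6 markers 0 were called.

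The 5 macrophage markers summed to 6.27 to 8.08 FPKM in Zfp90fl/fl and 3.05 to 4.09 FPKM in Zfp90ΔIEC mice, the direction of *Il1b* and *Cd14*, which macrophages also express. *Lyz2*, *Csf1r* and *Adgre1* were lower in every Zfp90ΔIEC mouse than in any Zfp90fl/fl mouse, and *Cd68* and *C1qa* overlapped. Of all genes tested, 21.3% did not overlap. *Lyz2* was at 3.40, 4.81 and 3.11 against 1.66, 1.61 and 1.87 FPKM and did not pass the test (limma adjusted p = 0.0782). *Csf1r* and *Adgre1* lay below the filter and did not pass either (limma adjusted p = 0.156 and 0.394 in the unfiltered fit). The 5 neutrophil markers summed to 25.2 to 47.1 and 21.9 to 33.0 FPKM, nearly all of it from *Ly6g*, which overlapped. *Ly6g* alone of this list passed the filter. In the Zfp90fl/fl mice *S100a8* was at 0.236, 0.466 and 0.451 FPKM and *S100a9* at 0.881, 0.476 and 1.62 FPKM. Both were listed at 0 in all Zfp90ΔIEC mice, and neither passed the test (limma adjusted p = 0.156 and 0.232 in the unfiltered fit). *Csf3r*, at 0.260, 0.277 and 0.262 FPKM in the Zfp90fl/fl mice, was at 0, 0 and 0.018 FPKM in the Zfp90ΔIEC mice (limma adjusted p = 0.0177 in the unfiltered fit). *Mpo* overlapped between genotypes. The 4 tuft cell markers summed to 1.16 to 1.49 and 0.557 to 1.03 FPKM. The part of these cells in the values of the gasdermins, *Il1b* and *Cd14* was not tested.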

How the data were processed

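Colonic epithelial RNA of 6 mice was sequenced as paired-end reads of 150 bases. The authors deposited 1 file per library, which holds the FPKM of each gene. Their methods name TopHat and Cuffdiff with a human genome, the submitters' processing notes name FastQC, STAR 2.5, Cuffnorm, DESeq 1.22.1 and mm9, and the files list mouse Ensembl identifiers, of which 52403 of 52550 had a symbol in GENCODE M21 (GRCm38). Coordinates are of GRCm38.

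From the deposited FPKM, log2(FPKM + 1) was compared between genotypes with limma 3.58.1 (R 4.3.3, intensity trend), over genes that reached 1 FPKM in 3 or more libraries, with Benjamini-Hochberg adjustment over all genes tested and a threshold of 0.05. Genes below the filter take their values from the fit without it. FPKM hold no counts, so no count model was used. Sums and ratios have no test. Confidence intervals are at 95%. Coding sequences were aligned with Biopython 1.88, and tables and figures made with Python 3.11.15 and matplotlib 3.10.9. The fit was tested on simulated data.

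The gasdermins, the 61 genes around them and the marker lists were chosen with earlier results of these data known. Genes named were the family, *Zfp90*, in each role those past the threshold and the 2 with the highest mean FPKM, nearest neighbours within 500 kb, and the 3 genes most alike to the cluster sum and to *Gsdmd*; others are named as chosen after their values were seen. Of the 61 genes, *Irgb10* was not matched. Alternatives were a pseudocount of 0.1, no filter or one at 0.1 FPKM, quantile normalization, median ratio scaling, no trend, the replicate block, *Gsdmc4* alone for the cluster, and leaving out each library. Samples were grouped by title. Results of some genes that this rule names are not reported here, and they remain in the counts but not in the figure of the list.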

Additional observations from a re-analysis of the deposited data

How the results depend on the processing

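No gasdermin passed the threshold under any alternative run, with the lowest adjusted p, 0.158 from limma, for *Gsdmc4*. Leaving out each library in turn gave log2 fold changes of -0.47 to 0.10 for *Gsdmc2* and -0.49 to 0.0079 for *Gsdmc4*, where both reversed without Zfp90ΔIEC replicate 1. *Gsdmc3* (-0.43 to -0.032), *Gsdmd* (-0.25 to -0.11), *Gsdme* (0.12 to 0.21) and *Gsdma* (0.034 to 0.16) kept their direction under every alternative run. *Gsdmc* had no value without Zfp90ΔIEC replicate 2, where all others were at 0. The number of genes called was 23 and became 13 with a pseudocount of 0.1, 15 without the filter and 31 with the filter at 0.1 FPKM. It was 20 with quantile normalization, 25 with median ratio scaling, 21 without the trend and 10 to 21 with a library left out. Of the list of 61 genes, 2 were called, 1 without the filter and 1 to 2 with a library left out.

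With the replicate number as a replicate block, 47 genes were called, 3 of them from the list of 61 (*Il1b*, *Cd14* and *Irf1*), and no gasdermin; for *Gsdmd* the adjusted p was 0.219. Same-numbered libraries deviated from their group means with correlations across genes of 0.19, 0.11 and 0.078, the last under 0.1, so the numbers were not taken to pair the mice, although each library correlated best with its own number. Values of *Gsdma* and *Gsdme* rest on few fragments, and shared reads make the split among the *Gsdmc* copies less certain. The 3 mice per genotype limit what could be detected for the cluster, where the interval of *Gsdmc4* ran from 0.589-fold to 1.29-fold.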

Other observations

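Some genes around the gasdermins split between libraries of the same genotype, and they were chosen after their values were seen. *Nek7*, a kinase that activates NLRP3, was at 2.05, 8.30 and 7.60 FPKM in the Zfp90fl/fl and at 7.14, 1.62 and 7.86 FPKM in the Zfp90ΔIEC mice. *Chmp3*, of the ESCRT-III machinery, was at 13.2, 33.7 and 13.9 FPKM in the Zfp90fl/fl and at 13.3, 31.9 and 27.7 FPKM in the Zfp90ΔIEC mice. *Tlr4*, the lipopolysaccharide receptor, was at 4.72, 1.57 and 5.56 FPKM in the Zfp90fl/fl and at 3.52, 3.06 and 0.606 FPKM in the Zfp90ΔIEC mice. In each, libraries of 1 genotype differed by more than the genotypes did on average.

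The proliferation marker *Mki67* was the only gene of the marker lists called among those that passed the filter, at 22.6, 21.8 and 22.6 FPKM in the Zfp90fl/fl and 29.1, 30.2 and 30.6 FPKM in the Zfp90ΔIEC mice (log2 fold change 0.41, adjusted p = 0.0478 from limma), without overlap. The stem cell markers *Lgr5*, *Ascl2* and *Smoc2* overlapped between genotypes. Summed levels of the other lists were 910 to 1208 and 1187 to 1618 FPKM for goblet cells in Zfp90fl/fl and Zfp90ΔIEC mice, 2.65 to 4.61 and 1.77 to 3.16 FPKM for T cells, 1.75 to 2.23 and 0.712 to 1.28 FPKM for B and plasma cells, 0.485 to 0.622 and 0.560 to 1.04 FPKM for stroma and endothelium, and 1.14 to 1.95 and 1.18 to 1.77 FPKM for squamous cells.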
